A study of Mus musculus with 6 samples.

Results

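Fibrillins, elastin, fibulins and the microfibril-associated proteins were followed as 10 named genes, Fbn1, Fbn2, Eln, Fbln1, Fbln2, Fbln5, Efemp1, Efemp2, Mfap2 and Mfap5, out of 22032 genes in the deposited table. The genes were picked by name, with the differences between the 2 groups already known, the fall of Fbn2 among them. The differences of these 10 genes are therefore given as a description, with their error and with no p-value.

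RNA was sequenced from mDE6, a mouse cell line, in 3 libraries with a control short hairpin RNA (shControl) and 3 with a hairpin against Arl4c (shArl4c), a gene of the ARF family of small GTPases. The title of the series sets the comparison in tooth germ development and osteoblastic differentiation. The labels give neither the tissue of the line, nor whether the lines were clones, nor whether the 3 libraries of a group came from separate cultures, so the spread between libraries may be technical. Only 1 Arl4c hairpin group is labelled, so what comes from lower Arl4c and what comes from the hairpin otherwise cannot be told apart. Libraries are numbered as their columns are, from 1 to 3 for shControl and from 2 to 4 for shArl4c.

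Fibrillins are large secreted glycoproteins that assemble into microfibrils, thin filaments of the extracellular matrix. In elastic tissues, microfibrils are the scaffold on which tropoelastin, the product of Eln, is laid down and cross-linked by lysyl oxidases, with the help of fibulins. Microfibrils also occur without elastin, as in the periodontal ligament and the ciliary zonule, and they bind latent growth factors of the TGF-beta and BMP families.

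The libraries held 12316770 to 14976113 reads. Values are in CPM, reads put on a common scale across libraries, with 0.0672 to 0.0827 CPM per read. Arl4c itself was 2.94-fold lower under its hairpin, at 6.75 to 7.42 CPM against 20.1 to 21.0 CPM in the controls. Library shArl4c 3 stood apart from its group when counts were compared over genes with at least 20 reads summed over a pair of libraries. The chi-square divided by its degrees of freedom came to 4.87 and 5.74 for the pairs with shArl4c 3. For shArl4c 2 with 4 it came to 1.54. The log2 fold changes of the tested family genes and the share of all genes called are therefore also given without shArl4c 3. Levels per kilobase and the values of single partner genes include it. All 7 listed mesenchymal marker genes averaged above 1 CPM over the 6 libraries, while none of the 6 listed epithelial markers found in the table did. Within a group only Krt14 of these 6 passed 1 CPM, at 1.24 CPM in shArl4c and 0.708 CPM in shControl. None of the 3 listed ameloblast markers was in the table. No gene in the table had fewer than 6 reads over all libraries, so genes with few reads may be missing from it. The 7 mesenchymal markers did not move together. Their sum was lower in shArl4c, 18499 to 19338 against 30488 to 31899 CPM, and most of it was Col1a1 and Col1a2. Col1a1 stood at 10139 against 17787, Col1a2 at 5240 against 9443 and Prrx1 at 585 against 1132 CPM. Pdgfra was higher in shArl4c, at 234 against 138 CPM, and so was Pdgfrb, at 277 against 247 CPM. Vim stood at 2444 against 2543 CPM and Twist1 at 45.4 against 42.7 CPM. Of smooth muscle markers, Acta2, Tagln and Cnn1 were expressed and lower in shArl4c, the sum of the 5 listed genes being 1231 to 1268 CPM in shControl and 198 to 228 CPM in shArl4c, while the defining Myh11 and Des were under 1 CPM in both groups. Col2a1, a cartilage collagen gene, went from 25.6 to 1.87 CPM, while Sox9, the other chondrocyte marker in the table, stood at 14.9 and 13.9 CPM. These shifts ran alongside those of the elastic fibre genes, and their part in them was not tested.

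Most of the family was expressed in mDE6, with elastin itself at the edge of detection. Of the 10 genes, 7 averaged 1 CPM or more over the 6 libraries and entered the fit across all genes, and Eln, Mfap2 and Efemp1 fell below it. Among those 7, limma called 5 at an adjusted p under 0.05, 1 higher and 4 lower in shArl4c, where it called 36.9% of all 14740 tested genes, 18.9% higher and 18.0% lower. Without shArl4c 3 it called 45.1% of 14685 genes. Since the genes were picked with this comparison in view, nothing is read from that count. Their median log2 fold change was -0.22, beside 0.01 for all tested genes. In bulk RNA, fewer cells expressing a gene and less of its RNA per cell cannot be told apart.

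**Figure D1:**
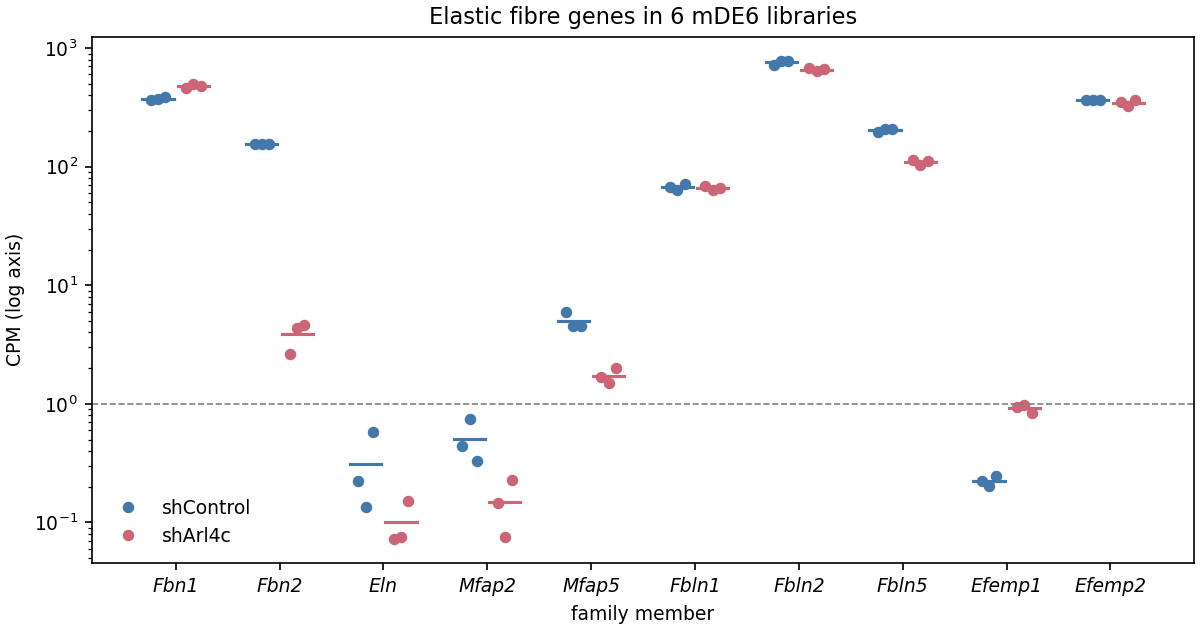
CPM of the 10 genes in each library on a log axis, with shControl in blue, shArl4c in red, group means as short lines and the filter at 1 CPM as a dashed line. Fbn2 runs from 154 to 156 CPM in shControl and from 2.61 to 4.67 CPM in shArl4c, Fbn1 is higher in all shArl4c libraries, and Eln stays under 1 CPM in all 6 libraries.

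The fibrillin genes went opposite ways. Fbn2, which encodes a fibrillin made mainly in developing tissues, measured 155, 154 and 156 CPM in libraries shControl 1, 2 and 3, against 2.61, 4.35 and 4.67 CPM in libraries shArl4c 2, 3 and 4. The groups were far apart and the control libraries almost equal. The means were 155 ± 0.841 and 3.88 ± 1.11 CPM (SD, n = 3 each), so that 1.68%, 2.80% and 3.005% of the control mean was left in the 3 shArl4c libraries. The log2 fold change of CPM + 1 was -5.03 (SE 0.18), and only 1 of the 14740 tested genes had a lower one. It was -5.11 without shArl4c 3. The transcript was still detected in every shArl4c library, by 36, 58 and 61 reads. Exact 95% Poisson intervals, which cover counting error only, were 1.83 to 3.62 CPM for shArl4c 2, 3.30 to 5.62 CPM for shArl4c 3 and 3.57 to 5.996 CPM for shArl4c 4. Those of the control libraries reached from 148 to 163 CPM. The control values thus lay closer together than counting error, and their small SD understates the error of their mean.

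Fbn1, which encodes the main fibrillin of postnatal microfibrils and is mutated in Marfan syndrome, measured 368, 369 and 384 CPM in the 3 control libraries, against 457, 499 and 480 CPM in the 3 libraries with the Arl4c hairpin. All 3 shArl4c libraries were above all controls. The means were 374 ± 9.05 and 479 ± 21.2 CPM, a rise of 28.1%, with a log2 fold change of 0.36 (SE 0.04) and of 0.33 without shArl4c 3.

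Per kilobase of transcript, which allows the 2 genes to be compared, Fbn1 stood at 31.2 ± 0.756 and Fbn2 at 14.1 ± 0.0761 CPM per kb in shControl. Fbn2 made up 31.4%, 31.2% and 30.6% of the fibrillin level in the controls and 0.616%, 0.935% and 1.04% in shArl4c 2, 3 and 4. The control libraries thus held both fibrillin transcripts and the shArl4c libraries almost Fbn1 alone. The gain of Fbn1, 8.79 CPM per kb, was smaller than the loss of Fbn2, 13.7 CPM per kb. The summed fibrillin level was 45.3 ± 0.816 CPM per kb in shControl and 40.4 ± 1.85 CPM per kb in shArl4c, 10.9% lower. By library the sum was 44.8, 44.8 and 46.2 CPM per kb in shControl and 38.4, 42.1 and 40.5 CPM per kb in shArl4c, with no overlap. The annotation ranks 2 Fbn1 transcripts equally, and the longer (11971 bases) was used. With the shorter (9847 bases) the sum was 52.03 ± 0.979 and 48.99 ± 2.23 CPM per kb, only 5.84% lower, and the lowest control (51.5) and the highest shArl4c library (51.1) nearly met. By coding length it was 8.44% lower. The gain of Fbn1 stayed below the loss of Fbn2 by both, at 10.7 against 13.7 and 12.2 against 17.4 CPM per kb, and the share of Fbn2 with the shorter transcript was 27.0% in shControl and 0.712% in shArl4c. The transcripts used for Fbn1 and Fbn2 (11041 bases) shared no run of 31 bases, and their longest identical run was 26 bases.

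**Figure D2:**
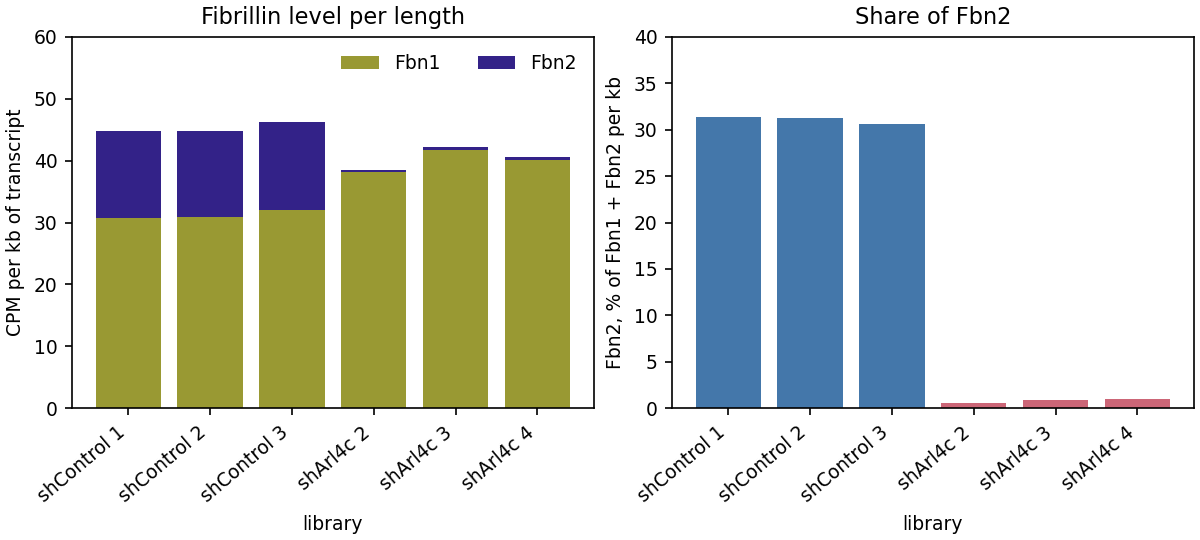
Left, the level of Fbn1 and Fbn2 per kilobase of transcript, stacked, in each library (CPM per kb). Right, the share of Fbn2 in their sum, which is 30.6% to 31.4% in the shControl libraries and 0.616% to 1.04% in the shArl4c libraries.

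Elastin was close to absent. Eln gave 3, 2 and 7 reads in shControl and 1, 1 and 2 reads in shArl4c, or 0.221, 0.134 and 0.579 against 0.0726, 0.0750 and 0.153 CPM. The groups overlapped. Summed over libraries, 12 reads stood against 4, a ratio of 0.336 with an exact 95% interval of 0.0790 to 1.11, so that a difference was not detectable at this depth. This interval and those of the other read ratios treat reads as independent molecules and cover counting error only, not the spread between libraries. The fibrillins and fibulins of mDE6 were thus measured in cells with hardly any elastin transcript in either group.

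Both microfibril-associated glycoproteins, small proteins that bind fibrillin, were at low levels. Mfap5 measured 5.91, 4.51 and 4.55 CPM in the control libraries, against 1.67, 1.499 and 1.99 CPM with the Arl4c hairpin. All controls were above all shArl4c libraries. The means were 4.99 ± 0.795 and 1.72 ± 0.249 CPM, 2.90-fold lower, with a log2 fold change of -1.13 (SE 0.15) and of -1.08 without shArl4c 3. At such levels the added 1 CPM shrinks the fold change, which was -1.55 by edgeR on the recovered reads. Mfap2 gave 6, 11 and 4 reads in shControl and 2, 1 and 3 reads in shArl4c, a ratio of 0.288 (exact 95% interval 0.0951 to 0.738). Its groups did not overlap, but they rest on 21 and 6 reads in all.

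The 5 fibulin genes covered more than 3 orders of magnitude and did not move together. Fibulins are secreted proteins with EGF-like repeats that bridge elastin, fibrillin and basement membrane proteins. Fbln5 encodes fibulin 5, which binds cells through integrins and tethers elastin and its cross-linking enzymes to microfibrils. It measured 195, 209 and 208 CPM in the 3 control libraries, against 114, 104 and 112 CPM in the 3 libraries with the Arl4c hairpin, with a wide gap between the groups. The means were 204 ± 7.79 and 110 ± 5.09 CPM, 1.86-fold lower, with a log2 fold change of -0.89 (SE 0.05) and of -0.85 without shArl4c 3. Fbln2, encoding fibulin 2, was the most abundant by CPM and measured 727, 783 and 784 CPM in the control libraries, against 674, 638 and 662 CPM with the Arl4c hairpin. The groups did not overlap, but the shift was small, 14.0% lower, with a log2 fold change of -0.22 (SE 0.04) and of -0.19 without shArl4c 3.

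Another 2 fibulins, Fbln1 and Efemp2, did not pass the test. Fbln1, encoding fibulin 1, measured 67.7, 63.1 and 71.98 CPM in the control libraries, against 68.5, 63.6 and 66.7 CPM with the Arl4c hairpin. The libraries of both groups were intermixed, with a log2 fold change of -0.03 (SE 0.05) that turned to 0.00087 without shArl4c 3. Efemp2 encodes fibulin 4, which is needed for elastin assembly and for the activation of lysyl oxidase. It measured 363, 363 and 369 CPM in the control libraries, against 352, 326 and 364 CPM with the Arl4c hairpin. The lowest value was that of shArl4c 3, and the groups overlapped, with a log2 fold change of -0.07 (SE 0.04) and of -0.03 without shArl4c 3.

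Efemp1, encoding fibulin 3, was the one of these 5 fibulin genes with all shArl4c libraries above all controls. It gave 3 reads in each control library and 13, 13 and 11 reads in shArl4c, or 0.221, 0.202 and 0.248 against 0.944, 0.974 and 0.842 CPM. The groups did not overlap. The ratio of summed reads, 37 against 9, was 4.14 with an exact 95% interval of 1.96 to 9.76. The gene stayed below the filter of 1 CPM and was not among the 7 in the fit.

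Counted over all 10 genes, 2 were higher and 5 lower in shArl4c with no overlap between the groups, and 3 overlapped. Among the 7 genes in the fit it was 1 higher and 4 lower, where 24.3% of all tested genes were higher and 22.5% lower with no overlap.

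Ordered by level per kilobase of transcript in shControl, the genes ran Efemp2, Fbln2, Fbln5, Fbn1, Fbln1, Fbn2, Mfap5, Mfap2, Efemp1 and Eln. Efemp2 stood at 234 ± 2.11 CPM per kb, Fbln2 at 160 ± 6.76 CPM per kb and Fbln5 at 34.998 ± 1.34 CPM per kb. Neighbours in this order did not overlap between control libraries, except Efemp1 and Eln. The place of Fbln5 before Fbn1, a ratio of 1.12, turns with the Fbn1 transcript chosen: with the shorter one Fbn1 stood above Fbln5 by a ratio of 1.08, at 37.96 ± 0.919 CPM per kb. Fbln1 followed at 18.5 ± 1.21 CPM per kb, above Fbn2 by a ratio of 1.31.

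In shArl4c the order changed in its middle part. Fbn2 dropped to 0.351 ± 0.100 CPM per kb and overlapped with Efemp1 at 0.452 ± 0.0341 CPM per kb (by coding length it overlapped with Mfap2 instead). Fbln5, at 18.9 ± 0.873 CPM per kb, overlapped with Fbln1, at 18.1 ± 0.677 CPM per kb, which it did not by coding length. Fbn1, at 40.01 ± 1.77 CPM per kb, stood 2.12 times above Fbln5, whereas per kilobase of coding sequence Fbln5 stood above Fbn1 by a ratio of 1.47, since only 1347 of the 5829 bases of the Fbln5 transcript are coding. Of the summed fibulin level, Efemp2 held 52.4 ± 0.821% in shControl and 56.04 ± 0.898% in shArl4c, Fbln2 35.7 ± 0.805% and 34.6 ± 0.756%, and Fbln5 7.82 ± 0.149% and 4.74 ± 0.0805%. These shares depend on the length used: per kilobase of coding sequence Fbln5 held 22.7 ± 0.361% and 14.7 ± 0.213%, Efemp2 41.1 ± 0.782% and 47.1 ± 0.863%, and Fbln2 31.3 ± 0.604% and 32.4 ± 0.647%, where its share is the higher one in shArl4c.

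**Figure D3:**
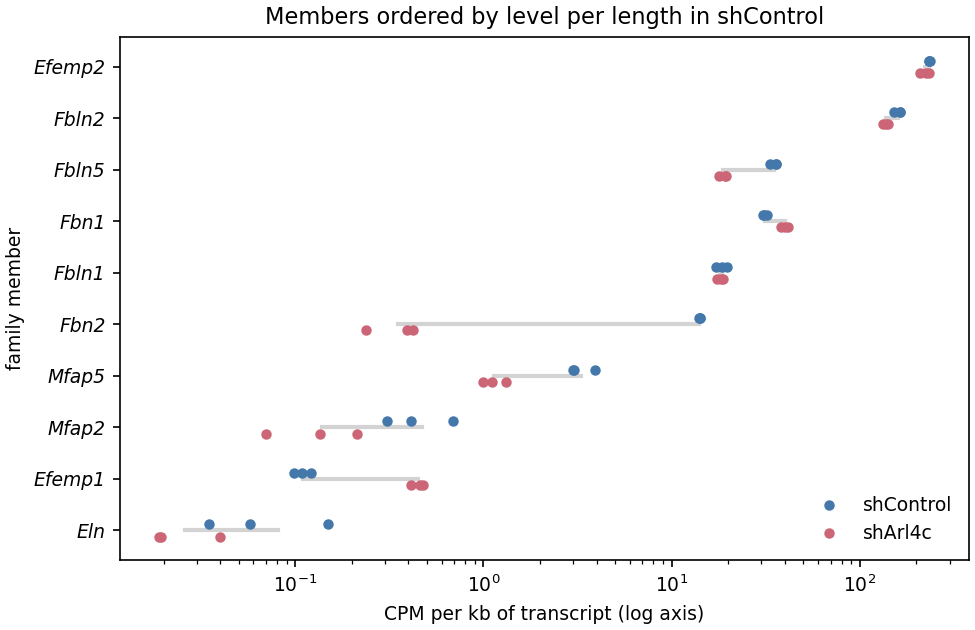
CPM per kilobase of transcript (log axis) of the 10 genes in the order of their shControl mean, with shControl libraries in blue, shArl4c libraries in red and a grey line joining the group means. Efemp2 and Fbln2 lead in both groups, and Fbn2 drops from 14.1 to 0.351 CPM per kb, to the range of Efemp1.

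The promoter table of RefSeq (build GRCm38.p6) held 7 of the 10 genes, not Fbn2, Eln or Mfap5. The 250 bases before the annotated start are shown for 3 fibulins that differed in direction, Fbln5 (lower), Fbln1 (intermixed) and Efemp1 (higher), with motif matches on either strand in capitals. They lie at chr12:101819120-101819369 on the minus strand, chr15:85205699-85205948 on the plus strand and chr11:28852955-28853204 on the plus strand.
Fbln5: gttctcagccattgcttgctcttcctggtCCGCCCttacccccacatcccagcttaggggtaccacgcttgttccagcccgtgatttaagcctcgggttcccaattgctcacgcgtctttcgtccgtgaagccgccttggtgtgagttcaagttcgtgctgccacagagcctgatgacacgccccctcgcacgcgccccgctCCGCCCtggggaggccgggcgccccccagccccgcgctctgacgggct
Fbln1: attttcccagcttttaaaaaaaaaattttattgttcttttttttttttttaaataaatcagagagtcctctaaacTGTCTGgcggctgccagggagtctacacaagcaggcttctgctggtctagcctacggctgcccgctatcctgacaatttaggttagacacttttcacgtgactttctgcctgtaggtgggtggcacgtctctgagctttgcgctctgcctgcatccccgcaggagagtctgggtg
Efemp1: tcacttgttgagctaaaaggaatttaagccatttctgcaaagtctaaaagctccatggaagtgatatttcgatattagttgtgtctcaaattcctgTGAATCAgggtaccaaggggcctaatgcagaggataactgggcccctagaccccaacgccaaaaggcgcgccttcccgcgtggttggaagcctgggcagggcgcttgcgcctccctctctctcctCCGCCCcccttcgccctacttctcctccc
The capitals mark 2 GC boxes (GGGCGG, bound by SP and KLF factors) for Fbln5, 1 SMAD-type match (CAGACA) for Fbln1, and 1 AP-1 match (TGANTCA) and 1 GC box for Efemp1. The window of Fbln5 held 21 CpG dinucleotides, that of Efemp1 10 and that of Fbln1 7, beside a median of 6 over 27025 promoters. Of the 7 windows, 6 held a GC box, all but that of Fbln1, beside 32.9% of all promoters. The AP-1 match was found in 1 of 7 windows and in 6.87% of all promoters, and the SMAD-type match in 1 of 7 and in 17.1%. No window held TATAAA, the TEAD motif CATTCC or a CArG box, which were found in 13.0%, 12.6% and 1.40% of all promoters. These matches describe letters in a short window and do not show binding.

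The genes that make, cross-link, bind or degrade elastic fibres were counted from a list of 62 partners by role. Of these, 58 were in the table and 48 passed the filter of 1 CPM. By limma, 12 were higher in shArl4c (25.0%) and 19 lower (39.6%), and 17 did not pass, beside 18.9% and 18.0% of all tested genes. The median log2 fold change of the 48 was -0.09. The list was drawn up with earlier results of these data known. Nothing is therefore read from these counts, and the p-values of single partners below are given as a description. No test compared the list with other genes.

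The ADAMTS-like proteins, secreted proteins without protease activity that bind fibrillin microfibrils, held the largest fall among the tested partners. Of 7 tested ADAMTS and ADAMTSL genes, 4 were lower, 1 higher and 2 did not pass. The ADAMTS-like genes did not all fall. Adamtsl5 was higher, at 18.2 CPM in the control libraries against 23.2 CPM under the hairpin. Adamtsl4 did not pass, at 56.9 against 54.8 CPM. The count also holds Adamts6 (lower) and Adamts10 (did not pass), which are not ADAMTS-like. These genes are named after their values were seen. Adamtsl3 fell 3.39-fold, with 121 ± 1.49 CPM in the control libraries against 35.7 ± 0.742 CPM under the hairpin (log2 fold change -1.73, SE 0.05, limma adjusted p = 1.13e-15). Adamtsl1 fell 2.61-fold, with 13.6 ± 1.10 CPM in the control libraries against 5.21 ± 0.529 CPM under the hairpin (limma adjusted p = 3.87e-08). Thsd4, also named Adamtsl6, whose product promotes fibrillin 1 microfibril assembly, fell 2.26-fold, with 59.4 ± 2.24 CPM in the control libraries against 26.3 ± 1.07 CPM under the hairpin (limma adjusted p = 1.18e-11).

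The lysyl oxidases, the cross-linking enzymes of elastin and collagen, went both ways, with 2 of 5 tested genes higher, 1 lower and 2 not passing. Listed beside them were Atp7a, encoding a copper transporter (log2 fold change 0.28, limma adjusted p = 0.00239), and Slc2a10, encoding a sugar transporter (-0.65, limma adjusted p = 5.74e-06), which were called higher and lower and are named after their values were seen. Loxl2, a lysyl oxidase-like enzyme, fell 2.84-fold, with 7.42 ± 1.42 CPM in the control libraries against 2.61 ± 0.465 CPM under the hairpin (log2 fold change -1.22, SE 0.15, limma adjusted p = 3.6e-06). Lox, which encodes lysyl oxidase itself and was added after its values were seen, was far more abundant and higher by a small amount, 2846 ± 82.2 against 3174 ± 89.1 CPM (limma adjusted p = 0.00399, log2 fold change 0.16 with an SE of 0.04). Loxl1, the lysyl oxidase-like enzyme that acts on elastin with fibulin 5, was also added after its values were seen, stood at 188 ± 6.80 and 203 ± 10.8 CPM, and did not pass (limma adjusted p = 0.0648).

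Of the 4 latent TGF-beta binding proteins, relatives of the fibrillins, 1 was lower, 1 higher and 2 did not pass. The higher one was Ltbp3, named after its values were seen. It stood at 308 ± 7.14 CPM in the control libraries against 429 ± 5.93 CPM under the hairpin. Ltbp2, which does not bind latent TGF-beta and associates with fibrillin microfibrils, fell 2.13-fold, with 44.2 ± 1.19 CPM in the control libraries against 20.7 ± 2.27 CPM under the hairpin (log2 fold change -1.06, SE 0.07, limma adjusted p = 1.08e-09). Of the 2 tested genes among other fibulin-type proteins, Hmcn1, encoding the very large matrix protein hemicentin 1, rose 2.14-fold, with 22.2 ± 1.90 CPM in the control libraries against 47.4 ± 5.68 CPM under the hairpin (limma adjusted p = 2.56e-08), and Fbln7 did not pass. Of 3 tested emilins and multimerins, Emilin2 rose 1.27-fold, with 219 ± 3.62 CPM in the control libraries against 278 ± 17.1 CPM under the hairpin (limma adjusted p = 5.73e-06), Emilin1 was lower and Mmrn2 did not pass.

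Among 6 tested integrin genes for cell binding to fibrillin, fibulin or elastin, 3 were lower, 1 higher and 2 did not pass. The 3 lower genes, named after their values were seen, were Itga5, Itgav and Itgb1. Their means were 281, 387 and 729 CPM in the control libraries, against 247, 306 and 657 CPM under the hairpin. Itgb8, the beta chain of an integrin that activates latent TGF-beta, rose 2.89-fold, with 2.08 ± 0.205 CPM in the control libraries against 6.01 ± 0.875 CPM under the hairpin (limma adjusted p = 2.51e-06). Itga8, the alpha chain of an RGD-binding integrin, averaged less than 1 CPM and was not tested, and is given after its values were seen. It gave 11, 15 and 24 reads in the control libraries and 1, 2 and 1 reads with the Arl4c hairpin. Of 6 tested microfibril-binding proteoglycans and glycoproteins, 3 rose and 3 fell, and Tnxb, encoding tenascin X, rose 2.61-fold, with 9.499 ± 0.726 CPM in the control libraries against 24.8 ± 1.27 CPM under the hairpin (log2 fold change 1.297, SE 0.09, limma adjusted p = 4.35e-10). Fn1 and Hspg2, the most abundant of the 6 and named after their values were seen, fell. Fn1 went from 9430 to 5934 CPM and Hspg2 from 1826 to 1246 CPM.

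The remaining roles held no change of a log2 fold change of 1 or more. Of 5 tested genes for processing and folding, 2 fell and 3 did not pass. Fkbp10, which encodes a chaperone of tropoelastin and procollagen in the endoplasmic reticulum, fell 1.45-fold, with 366 ± 6.37 CPM in the control libraries against 253 ± 11.01 CPM under the hairpin (limma adjusted p = 5.69e-09). Of 5 tested elastases, 3 fell, 1 rose and 1 did not pass, and Mmp14, a membrane-bound matrix metalloproteinase, fell 1.56-fold, with 178 ± 6.21 CPM in the control libraries against 114 ± 5.13 CPM under the hairpin (limma adjusted p = 1.42e-09). None of the 3 genes of the elastin receptor complex passed. Neu1, its sialidase, stood at 12.5 ± 1.14 and 11.4 ± 0.456 CPM.

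**Figure D4:**
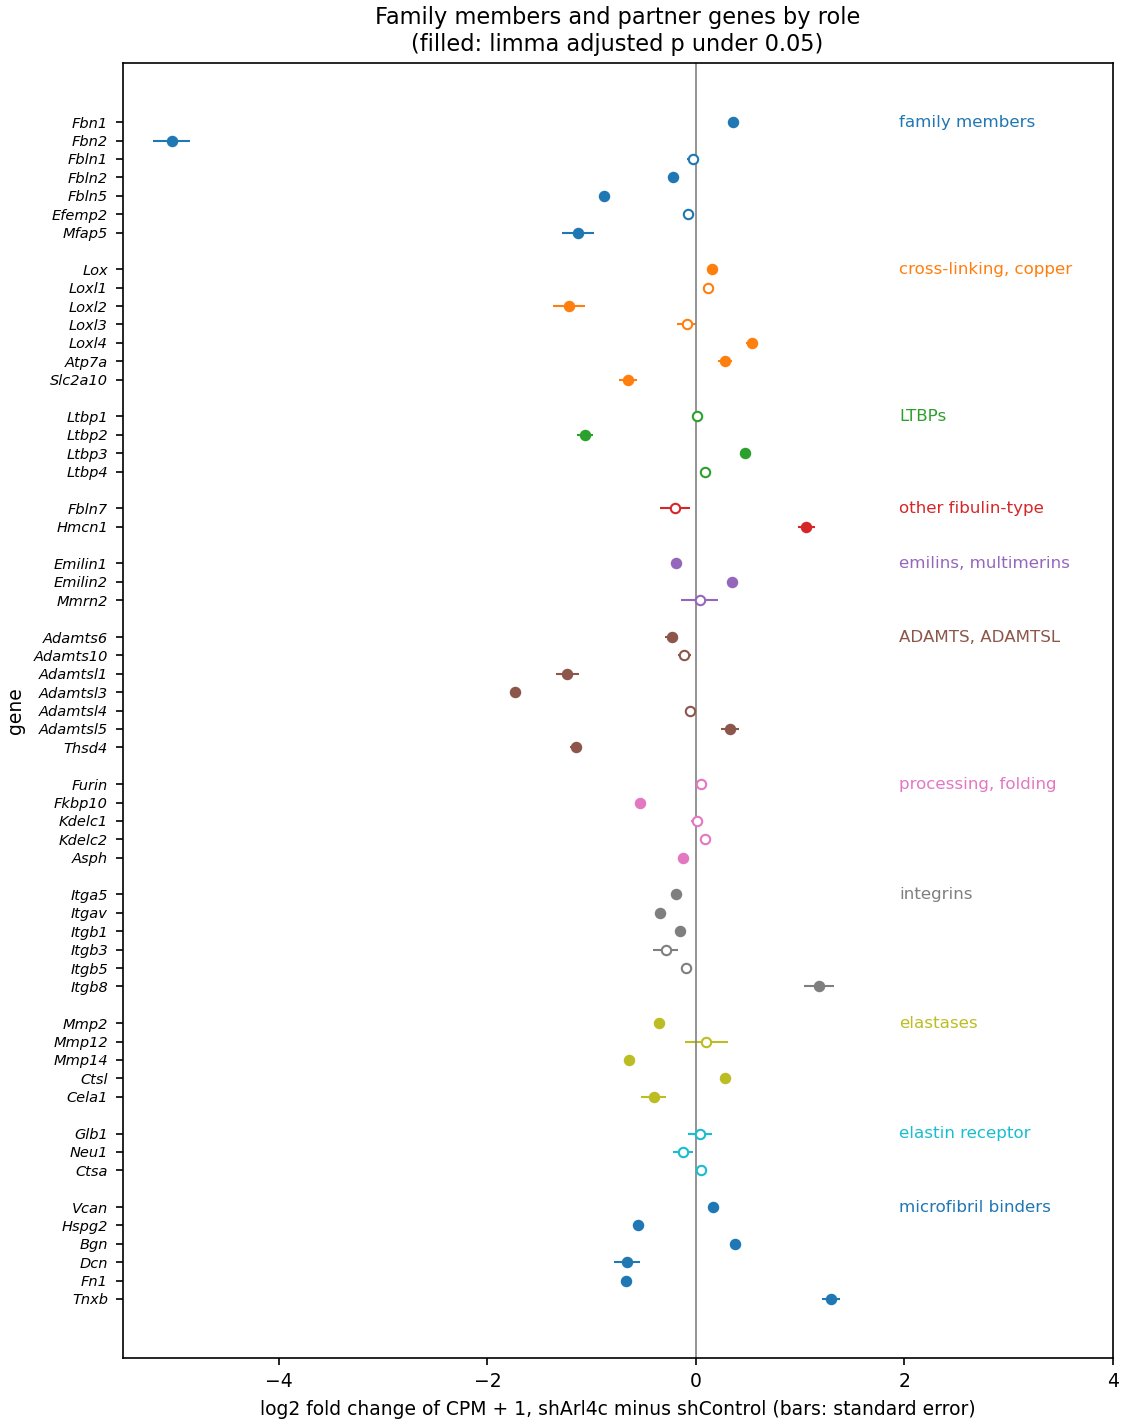
Log2 fold change of CPM + 1 (shArl4c minus shControl, with standard errors) of the 7 tested family members and the 48 tested partners by role, where filled points passed limma's test. Fbn2 lies at -5.03, and no partner lies below -1.73, the value of Adamtsl3.

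Across the 6 libraries, the genes most like Fbn2 were found by the smallest root mean square difference of centred log2 values among 11280 other genes averaging 5 CPM or more. They were Tnn (0.24), the ribosomal protein pseudogene Rpsa-ps10 (0.43), Postn (0.56), Pgm5 (0.59) and Col11a1 (0.62). Reads of Rpsa-ps10 may be shared with near-identical copies. The genes most like Fbn1 included Vps13c (0.01), Kat6b (0.02), Cenpi (0.02) and Ppid (0.02). The measure covers 2 groups of 3 libraries, so it mostly reflects the size of the difference between them.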

How the data were processed

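Total RNA of 6 mDE6 samples was purified with TRIzol and a spin kit and made into directional libraries, per the labels' protocols. The authors deposited 1 table of CPM per gene. Trimmomatic 0.38, RSEM 1.3.0, Bowtie2, edgeR and build GRCm39 are named in the submitters' processing notes, with no order or settings. No source used here states whether counting used strand, so reads of Fbn1 and Gm9913, or of Efemp2 and Mus81, which overlap on opposite strands, may be mixed. All values (100%, tolerance 0.001 of a read) were whole multiples of the smallest value of their column, and reads were recovered from these steps. Columns named shluc were taken as shControl and those naming the Arl4c hairpin, misspelt and numbered 2 to 4, as shArl4c, by group only.

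Symbols came from a name table (21880 of 22032 identifiers). Rows averaging 1 CPM or more (14740 genes) were fitted as log2(CPM + 1) with limma 3.58.1 in R 4.3.3, with intensity trend and robust moderation, no covariate, and Benjamini-Hochberg adjustment over all of them. The quasi-likelihood test of edgeR 4.0.16 (5376 genes called) and DESeq2 1.42.0 (4108) were run on recovered reads. The fit was also run on counts simulated with the same spread beyond counting error for all genes and libraries. That setting is simpler than these data, so the run does not vouch for the calls made here. Transcript and coding lengths came from GENCODE M21, taking the principal transcript with the best support and, at a tie, which only Fbn1 had, the longest. The Fbn2 transcript used has a weaker support level, 5, than those of the other members, 1. The share of Fbn2 and the summed fibrillin level rest on its length. Partner genes named are those past the threshold with a log2 fold change of at least 1 in size, or the smallest p of a role with none. The result of 1 gene is not reported here. The family, the lists and the rules were chosen with earlier results of these data known. Rescaling by TMM left the deposited CPM as it was. The ratios of summed reads, the fibrillin share, the sums by coding length and the shorter Fbn1 transcript were added after seeing the data.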

Additional observations from a re-analysis of the deposited data

How the results depend on the processing

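Of the 7 family members in the fit, the 5 calls and the 2 genes that did not pass kept their side of the threshold under all alternatives that tested them: pseudocounts of 0.5 and 5, no filter or a filter at 5 CPM (which drops Mfap5), 2 other scalings (median of ratios and plain CPM; TMM returned the deposited values), limma without trend and robust moderation, edgeR, DESeq2 and each library left out. All these settings reuse libraries whose differences were known when the genes were picked, so this agreement is no independent support. With no filter, 2 members were called higher in place of 1 and 5 lower in place of 4, the added ones being Efemp1 and Mfap2, which no other setting tested. Moves of a fold change were measured against the SD of log2(CPM + 1) within a group, taking the larger of the 2 groups. Leaving aside filters, TMM and moderation, which leave a fold change as it is, 80 of 84 log2 fold changes of members moved by no more than 1 such SD. The other 4 were Fbn2 with a pseudocount of 5 (-4.18), and Mfap5 with a pseudocount of 5 (-0.57), with edgeR (-1.55) and with DESeq2 (-1.55), where the pseudocount or its absence sets the size. With coding length, the share of Fbn2 in shControl was 29.1% in place of 31.1%, and the order of the 10 genes in shControl was the same. With the shorter Fbn1 transcript the share was 27.0%, and 8 of the 10 kept their place, Fbn1 and Fbln5 changing theirs. Partner genes called ran from 10 to 15 higher and 16 to 20 lower. No paired analysis was possible because the columns of the table carry other numbers in shArl4c (2 to 4) than the sample labels, and no column could be tied to a single sample. Depth limits Eln, Mfap2 and Efemp1, which rest on 4 to 37 reads a group, and Fbn2 in shArl4c, which rests on 155.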
